A study of Homo sapiens with 20 samples.

Results

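Untreated gastric cancer cell lines that carry Epstein-Barr virus (EBV) were compared with AGS, an EBV-negative line of the same methylation class, in 6 of the 20 RNA sequencing libraries of the series. The 6 were taken from the labels of line and treatment and from no measured value. YCCEL1 and SNU719 gave 2 libraries each and are described by the study as EBV+ and as positive for the CpG island methylator phenotype (CIMP+). AGS gave 2 libraries and is described as EBV-negative and CIMP+. All 6 libraries came from cells that received DMSO, the vehicle control, for 72 h and are labelled wild type. The other 14 libraries held the same lines after decitabine (DCB), an inhibitor of DNA methyltransferases, and the EBV-negative lines HGC27 and SNU16 under both treatments. The labels name HGC27 where the study's methods name MKN74, so the identity of that line is uncertain, and its values stand under the label's name.

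EBV status was a property of the line here. The comparison set 2 lines against 1, and EBV could not be told apart from whatever else differs between these lines. The labels also place YCCEL1 in EMEM and the other 2 lines in RPMI, whereas the study's methods name RPMI for all, so that the medium could not be told apart from the line YCCEL1 either. Nothing in the labels says that the 2 libraries of a line came from separate cultures, and the p-values measure the spread between such libraries, which may be technical.

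EBV is a herpesvirus that persists in the nucleus of infected cells as an episome and expresses few of its genes in latency. In gastric cancer it is found in tumor cells that carry dense DNA methylation at many promoters, and such tumors are known for immune cell infiltration and for genes of antigen presentation and interferon signaling. Interferon-stimulated genes (ISGs) are the antiviral genes that a cell turns on after interferon binds its receptor, through STAT and IRF factors that recognize a short element in their promoters. CIMP denotes tumors in which CpG-rich promoters are methylated together, a state linked with silent genes.

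The values were normalized estimated counts, analysed as log2(value + 1). The 6 libraries held between 7243220 and 10455300 read equivalents as far as the smallest step of the values shows, and replicate libraries of a line correlated at 0.976 to 0.980 over genes, against 0.892 to 0.912 between lines. Of the 16 epithelial markers, KRT8, KRT18, KRT19, EPCAM and CLDN4 were abundant in all 3 lines, while KRT20 measured 0 to 7.39 and CLDN18 0 to 4.31. The summed level of 15 lymphoid and myeloid markers ran from 31425 to 44235 in the EBV+ lines and from 34401 to 34527 in AGS, nearly all of it LYZ, the lysozyme that gastric glands also make, while PTPRC measured 0 to 3.05, CD79A 0 to 4.76 and CD3E was listed at 0. The summed level of 14 fibroblast and endothelial markers was 8.77 to 51.3 in the EBV+ lines and 295 to 311 in AGS, mostly COL1A1. Mitochondrial transcripts made up 12.2 to 14.3% of the summed level in the EBV+ lines and 6.39 to 6.43% in AGS, and the part of this difference in the values below was not tested. Transcripts of EBV itself were not analysed here.

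The EBV+ lines and AGS differed in many genes. Of 27350 genes tested with limma, 1304 (4.77%) were higher in the EBV+ lines and 1310 (4.79%) were lower. These had an adjusted p (Benjamini-Hochberg) under 0.05 and a log2 difference beyond 2, that is, 4-fold on the log2(value + 1) scale. At the adjusted p alone, 4822 (17.6%) were higher and 4813 (17.6%) were lower, and the median difference over all genes was 0. A mean over 2 lines can be carried by 1 of them. When both EBV+ lines had to pass, 546 genes (2.00%) were higher in both and 753 (2.75%) were lower in both. When the distance between YCCEL1 and SNU719 was counted as part of the spread, by treating the 4 EBV+ libraries as 1 group (the between-line test), 481 genes were higher and 640 lower, and at the adjusted p alone 1199 and 1576. This test took the 4 EBV+ libraries as separate, although they come from 2 lines. AGS is 1 line, so the spread between EBV-negative lines was not measured. The p-values of this test thus count libraries and not lines.

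YCCEL1 and SNU719 also differed widely from each other. With the same limits, 739 genes (2.70%) were higher in YCCEL1 and 1803 (6.59%) were lower. Against AGS alone, 4.16% of genes were higher and 5.90% lower in YCCEL1, and 6.82% were higher and 4.44% lower in SNU719, from fits that share the AGS libraries. Among the genes that differed from AGS, 563 of the 1304 higher and 442 of the 1310 lower ones also separated YCCEL1 from SNU719.

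The largest differences shared by both EBV+ lines were near on or off. ONECUT3, a homeodomain transcription factor of endodermal and neural tissue, measured 2118 and 2078 in YCCEL1, 1594 and 1613 in SNU719, and 0.892 and 0 in AGS, a log2 difference of 10.38 (SE 0.20, adjusted p = 7.55e-14). STEAP1, a metalloreductase of the cell surface, measured 1309.8 and 1338 in YCCEL1, 1203 and 1204 in SNU719, and 1.99 and 2.20 in AGS (log2 difference 8.67, SE 0.11, adjusted p = 1.38e-15). In both genes the 4 EBV+ libraries lay together and far above AGS. TBX3, a T-box repressor, measured 955 and 951 in YCCEL1, 765 and 714 in SNU719, and 0 and 0 in AGS (adjusted p = 1.09e-16). CA12, a carbonic anhydrase of the cell membrane, measured 687 and 651 in YCCEL1, 356 and 332 in SNU719, and 0 and 0 in AGS. GLB1L2, CCDC198, AGMAT and DNAJA4, a co-chaperone of the DNAJ family, were the others among the 10 largest, together with MAGEA6 and ALDH1A1, which are described with their families.

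In the opposite direction, NKD1, an inhibitor of WNT signaling that binds Dishevelled, measured 0.745 and 0.419 in YCCEL1, 11.8 and 0.812 in SNU719, and 2604 and 2621 in AGS, a log2 difference of -9.89 (SE 0.66, adjusted p = 3.30e-08). MYL9, a myosin light chain of contractile cells, measured 0 and 0 in YCCEL1, 0 and 0.767 in SNU719, and 1465 and 1529 in AGS. VTN, which encodes the adhesive plasma protein vitronectin, measured 12.7 and 10.96 in YCCEL1, 16.2 and 10.6 in SNU719, and 7184 and 6961 in AGS (log2 difference -9.04, SE 0.35). AGS stood far above every EBV+ library in these genes. SNX19, a sorting nexin, measured 0 and 0 in YCCEL1, 0 and 0.286 in SNU719, and 932 and 949.9 in AGS. COL6A1, a chain of collagen VI, measured 0 and 3.06 in YCCEL1, 2.61 and 1.04 in SNU719, and 1193 and 1246 in AGS. FPR3, a formyl peptide receptor, was listed at 0 in both EBV+ lines and measured 2621 and 2652 in AGS. BEX3, SULT1C4, DAB2 and PASD1 were likewise listed at 0 in both EBV+ lines.

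**Figure D1:**
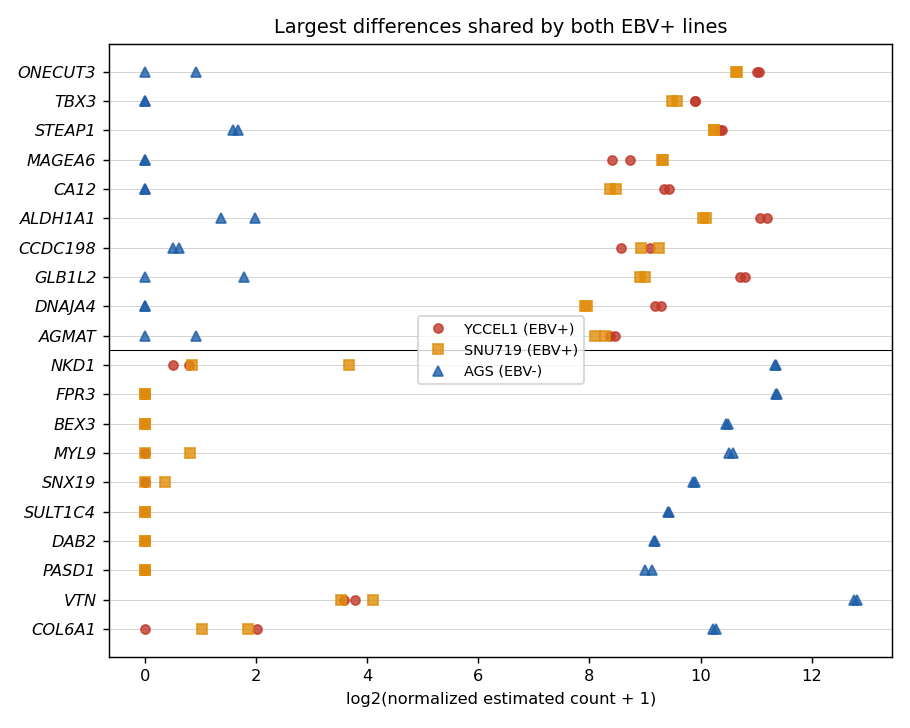
Level of the 10 genes highest (above the line) and the 10 lowest (below it) in both EBV+ lines against AGS, as log2(normalized estimated count + 1), with 1 point per DMSO library and overlapping points at 0. In each of the 20 genes the 4 EBV+ libraries lie on 1 side of the 2 AGS libraries.

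Ranked by adjusted p alone, the leading genes included some that a single line carried. RAB15, a Rab GTPase of vesicle traffic, measured 909 and 976 in YCCEL1, 1142 and 1047 in SNU719, and 8.35 and 9.43 in AGS. CD44, the hyaluronan receptor used as a marker of gastric cancer stem cells, measured 5913 and 6145 in YCCEL1, 6814 and 6742 in SNU719, and 362 and 359 in AGS, a log2 difference of 4.14 (SE 0.06, adjusted p = 3.15e-15). SNX9, a sorting nexin of endocytosis, measured 753 and 740.2 in YCCEL1, 482 and 503 in SNU719, and 7.74 and 8.30 in AGS. These 3 were higher in both EBV+ lines. LGALS1, which encodes galectin-1, measured 6.22 and 5.25 in YCCEL1, 65.6 and 64.2 in SNU719, and 1701 and 1743 in AGS and was lower in both, with an adjusted p = 0.0501 in the between-line test. PRNP, the prion protein gene, measured 0 and 0 in YCCEL1, 792 and 814 in SNU719, and 1177 and 1219 in AGS, and CAVIN1, a coat protein of caveolae, measured 0 and 0 in YCCEL1, 653 and 690.4 in SNU719, and 759.8 and 722 in AGS, so that YCCEL1 alone was listed at 0. CYBA, the p22phox subunit of NADPH oxidases, measured 913 and 926 in YCCEL1, 0 and 0 in SNU719, and 1325 and 1409 in AGS, so that SNU719 alone was listed at 0.

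Values of 0 were common on both sides. AGS was listed at 0 in 433 of the 1304 genes higher in the EBV+ lines, and both EBV+ lines were listed at 0 in 228 of the 1310 lower ones. With a mean of at least 100 on the other side, 33 genes, 30 of them protein coding, were listed at 0 in both EBV+ lines, and 12 genes outside chromosome Y, 9 of them protein coding, were listed at 0 in AGS. The first set held THBS1, an angiogenesis inhibitor, CADM1, an adhesion molecule known as a tumor suppressor, PDGFRA, a receptor kinase, GPX3, a secreted glutathione peroxidase, CHI3L1, HES4, NTN1 and SLCO2A1. CADM1 measured 139.7 and 166 in AGS and THBS1 measured 125 and 365. The 12 of AGS held TBX3, CA12, DNAJA4, MAGEA6, HOXA3, CCL20, SEPTIN6 and ZHX2.

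The DCB libraries of the same lines, which played no part in choosing these genes, showed which of them were above 0 after treatment. A gene at 0 can only go up, so the counts are set beside those of every tested gene at 0 in the same libraries. Of the 33 genes at 0 in both EBV+ lines, 18 were above 0 in all 4 DCB libraries and 2 (6.06%) reached 10 in all 4, against 87 of 3073 tested genes at 0 there (2.83%). Of the 12 genes at 0 in AGS, 5 (41.7%) reached 10 in both AGS DCB libraries, against 369 of 5061 (7.29%). The tested genes set beside them had entered through a sum above 10 over all 20 libraries, the DCB libraries included. They were not chosen for a mean of at least 100 elsewhere, so the shares come from unlike sets and are a description. TBX3 measured 322 and 355 in AGS after DCB, DNAJA4 97.9 and 126, and MAGEA6 63.1 and 83.4. CADM1 measured 29.0 and 73.7 in YCCEL1 after DCB, and 0.980 and 1.03 in SNU719. CST4, a salivary cystatin, and HES4, a target of Notch signaling, were the 2 that reached 10 throughout, CST4 with 33.1 and 46.7 in YCCEL1 and 43.2 and 49.0 in SNU719, and HES4 with 26.8 and 17.0 in YCCEL1 and 15.4 and 10.3 in SNU719. In untreated HGC27 and SNU16, 7 of the 33 genes reached 10 in both lines and 16 in neither. For the 12 genes at 0 in AGS, 4 reached 10 in both of these EBV-negative lines, 5 in 1 of them and 3 in neither.

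Of the gene lists, ISGs differed most often toward lower values in the EBV+ lines. Of 40 ISGs tested, 32 were lower at the adjusted p and 21 past the fold limit, 15 of them in both lines, while 3 were higher and 1 of these past the fold limit. Over all genes, 17.6% were lower at the adjusted p, 4.79% past the fold limit and 2.75% past it in both lines. The list's median log2 difference was -2.04, with -2.41 in YCCEL1 and -1.79 in SNU719, beside 0 over all genes. In 26 of the 40, all 4 EBV+ libraries lay below both AGS libraries, which held for 17.4% of all genes tested. In the between-line test, 15 of the 40 were lower and 1 was higher at the adjusted p, beside 1576 and 1199 of all 27350 genes. In bulk RNA, fewer cells that express a gene and less RNA per cell cannot be told apart.

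**Figure D2:**
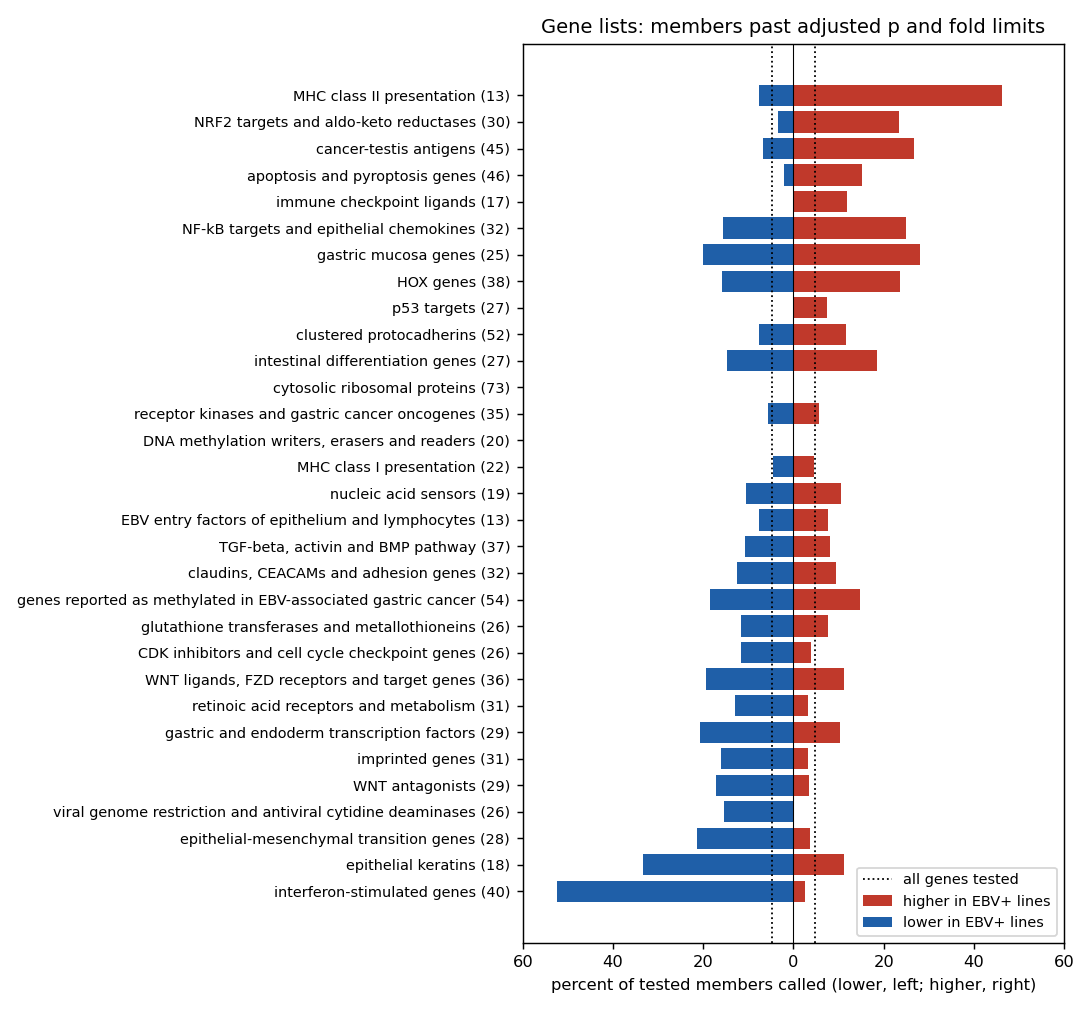
Share of the tested members of each gene list that were called lower (left) and higher (right) in the EBV+ lines than in AGS at an adjusted p below 0.05 and a log2 difference beyond 2, with the number tested in brackets and dotted lines at the shares of all genes (4.79% and 4.77%). ISGs and MHC class II genes lie at the 2 ends.

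The effector genes showed the widest gaps. IFI6, an antiviral protein of the endoplasmic reticulum and mitochondria, measured 5.63 and 2.11 in YCCEL1, 87.8 and 93.2 in SNU719, and 3119.6 and 3045 in AGS (log2 difference -7.24, SE 0.27, adjusted p = 7.87e-11). ISG15, a ubiquitin-like modifier, measured 29.5 and 40.2 in YCCEL1, 132 and 153 in SNU719, and 1526 and 1594 in AGS (log2 difference -4.45, SE 0.21, adjusted p = 7.46e-10). IFIT1, which binds viral RNA that lacks cap methylation, measured 0 and 1.01 in YCCEL1, 2.16 and 3.64 in SNU719, and 815 and 826 in AGS (log2 difference -8.46, SE 0.42, adjusted p = 1.39e-09). In these genes both EBV+ lines lay far below AGS, and YCCEL1 lay below SNU719. IFI27, a mitochondrial interferon-inducible protein, measured 2.02 and 1.31 in YCCEL1, 2.43 and 0 in SNU719, and 1063 and 1008 in AGS. IFIT2 and IFIT3, partners of IFIT1, measured 0 and 0.904 in YCCEL1, 7.34 and 2.58 in SNU719, and 554 and 550.3 in AGS and, for IFIT3, 1.496 and 2.14 in YCCEL1, 9.12 and 6.21 in SNU719, and 407 and 413 in AGS. Those 3 were near 0 in both EBV+ lines. OASL, an oligoadenylate synthetase-like protein, measured 13.8 and 11.3 in YCCEL1, 89.8 and 95.1 in SNU719, and 469 and 483 in AGS. IFITM1, which blocks viral entry at membranes, measured 10.1 and 122 in YCCEL1, 9.33 and 8.49 in SNU719, and 1628 and 2188 in AGS, with the 2 YCCEL1 libraries far apart. RSAD2, the antiviral enzyme viperin, measured 0 and 0 in YCCEL1, 1.66 and 9.87 in SNU719, and 138 and 139.6 in AGS. IFI6 gave an adjusted p = 0.0747 in the between-line test and OASL 0.124, while ISG15 gave 0.0364, IFIT1 0.00423, IFI27 0.00241 and IFIT2 0.0125.

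The signaling genes of the pathway were lower by less. IRF9, the DNA-binding part of the complex that reads ISG promoters, measured 249 and 205 in YCCEL1, 124 and 125 in SNU719, and 634 and 667 in AGS (log2 difference -1.95, SE 0.14, adjusted p = 9.49e-08). STAT2, another part of that complex, measured 535 and 673 in YCCEL1, 498 and 509 in SNU719, and 833 and 848 in AGS (log2 difference -0.61). USP18, which restrains the receptor, measured 38.8 and 41.7 in YCCEL1, 121 and 102 in SNU719, and 183 and 194 in AGS. All 3 were detected in every EBV+ library, and their log2 differences stayed within the fold limit. IRF9 gave an adjusted p = 0.0352, STAT2 0.0679 and USP18 0.227 in the between-line test. Other members split the EBV+ lines. OAS1, which activates RNase L, measured 4319 and 4192 in YCCEL1, 255 and 281 in SNU719, and 672 and 631 in AGS, and OAS3 measured 2314 and 2343 in YCCEL1, 289.7 and 303 in SNU719, and 1430.4 and 1423 in AGS, so that YCCEL1 stood above AGS and SNU719 below. SAMD9 measured 1.48 and 1.67 in YCCEL1, 96.5 and 97.3 in SNU719, and 100.4 and 108 in AGS, so that YCCEL1 alone was low. HERC6, a ubiquitin ligase family member, measured 13.9 and 20.5 in YCCEL1, 54.5 and 52.1 in SNU719, and 0 and 0.967 in AGS and was the member higher in both lines past the fold limit. IRF1 measured 93.2 and 303 in YCCEL1, 97.9 and 55.6 in SNU719, and 1263 and 169 in AGS, with the 2 AGS libraries far apart. MX1 measured 8.62 and 25.4 in YCCEL1, 12.7 and 16.1 in SNU719, and 20.7 and 35.4 in AGS and did not pass the test.

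**Figure D3:**
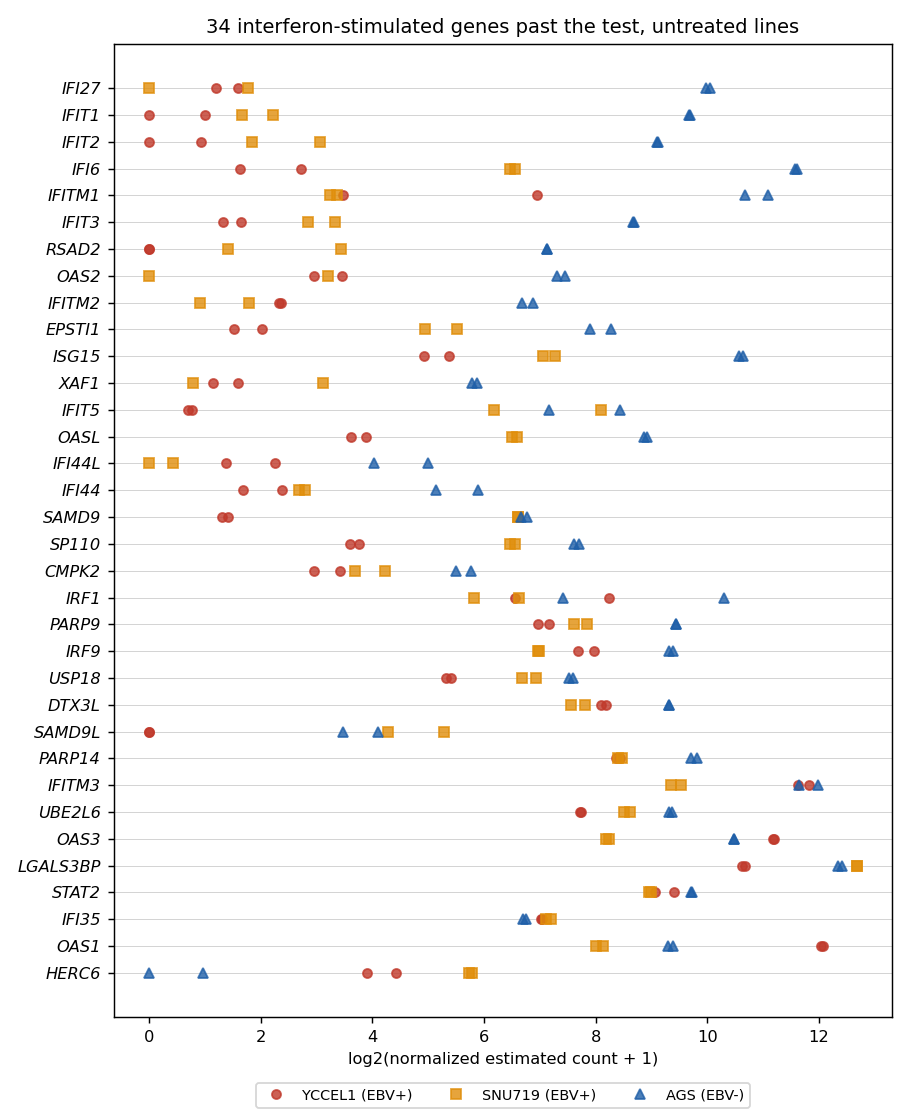
Level of 34 ISGs past the adjusted p, as log2(normalized estimated count + 1), with 1 point per DMSO library and genes ordered by their mean log2 difference from AGS. The AGS libraries lie to the right of all 4 EBV+ libraries in most of the upper rows, whereas in OAS1 and OAS3 the YCCEL1 libraries lie above AGS.

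ISG levels of the other EBV-negative lines were set beside these as a description. The summed level of the 40 ISGs was 30213 to 30822 in AGS, 14552 to 15392 in YCCEL1 and 12258 to 12298 in SNU719, and untreated SNU16 and HGC27 reached 7460 to 8443 and 5579 to 5689. The highest total among the 5 lines was thus that of AGS, and the totals of both EBV+ lines lay above those of the other EBV-negative lines. A total rests mostly on the abundant members. By the median log2 level of the list, AGS was again highest with 8.67, followed by SNU719 with 6.23, SNU16 with 5.74, HGC27 with 5.26 and YCCEL1 with 3.62.

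The promoters of these genes are shown because the interferon complex reads them. The core of the interferon-stimulated response element, GAAA followed by any 2 bases (NN) and GAAA again, was searched on both strands in the 250 bases before the transcription start given by RefSeq (GRCh38.p14), with overlapping matches allowed. A window was at hand for 33 of the 40 ISGs, and 18 of these (54.5%) held it, against 342 of 13427 protein-coding genes tested (2.55%) and 839 of 27305 windows in all (3.07%). Of the 26 ISGs lower at the adjusted p that had a window, 15 held it. The windows of 4 leading genes follow, 5′ to 3′ on the gene's strand, with each match in capitals.
IFI6, chr1:27672193-27672442 (minus strand): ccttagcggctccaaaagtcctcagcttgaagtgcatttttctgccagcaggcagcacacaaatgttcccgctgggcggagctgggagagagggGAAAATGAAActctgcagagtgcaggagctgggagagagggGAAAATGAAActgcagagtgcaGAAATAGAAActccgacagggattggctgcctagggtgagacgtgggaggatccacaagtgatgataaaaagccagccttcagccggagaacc
ISG15, chr1:1013247-1013496 (plus strand): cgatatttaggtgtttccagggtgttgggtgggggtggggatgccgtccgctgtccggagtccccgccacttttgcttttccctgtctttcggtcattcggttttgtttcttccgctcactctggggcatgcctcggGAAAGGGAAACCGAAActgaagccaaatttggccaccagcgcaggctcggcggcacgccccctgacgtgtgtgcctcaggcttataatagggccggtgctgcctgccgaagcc
IFIT1, chr10:89392373-89392622 (plus strand): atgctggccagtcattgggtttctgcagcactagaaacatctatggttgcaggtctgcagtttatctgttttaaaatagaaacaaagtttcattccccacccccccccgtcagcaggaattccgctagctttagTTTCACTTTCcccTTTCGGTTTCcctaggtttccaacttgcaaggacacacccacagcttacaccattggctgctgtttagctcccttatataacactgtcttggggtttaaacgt
IFI27, chr14:94110486-94110735 (plus strand): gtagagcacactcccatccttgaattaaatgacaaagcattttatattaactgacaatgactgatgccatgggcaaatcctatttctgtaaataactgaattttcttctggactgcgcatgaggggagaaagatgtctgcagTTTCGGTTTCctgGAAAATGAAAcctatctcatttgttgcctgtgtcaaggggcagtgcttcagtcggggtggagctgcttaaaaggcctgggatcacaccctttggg
IFI6 held 3 matches, and the others held 2 each, which overlap in ISG15. A match is a description of the letters and does not show that the site is bound.

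Nucleic acid sensors and restriction factors were lower more often than higher. Of 19 sensors and adaptors, 8 were lower and 3 higher at the adjusted p, beside 17.6% of all genes in each direction. The between-line test called 1 of the 19 lower by limma, near the share of all genes (1576 of 27350), and none higher (1199 of 27350). IRF7, a master factor of interferon induction, measured 69.7 and 57.0 in YCCEL1, 54.3 and 49.7 in SNU719, and 337 and 331 in AGS (log2 difference -2.52, SE 0.31, adjusted p = 1.77e-05). DDX58, which encodes the RNA sensor RIG-I, measured 8.15 and 14.0 in YCCEL1, 98.3 and 23.2 in SNU719, and 311 and 254 in AGS. MAVS, the mitochondrial adaptor of RIG-I, measured 1024 and 1070.1 in YCCEL1, 822 and 798 in SNU719, and 1463 and 1447 in AGS (log2 difference -0.66). STING1, the adaptor of cytosolic DNA sensing, measured 8.88 and 1.90 in YCCEL1, 32.3 and 61.3 in SNU719, and 1.83 and 4.02 in AGS, so that SNU719 alone stood clear of AGS, and NLRP3, an inflammasome sensor, measured 2.15 and 0.805 in YCCEL1, 83.4 and 49.3 in SNU719, and 0 and 2.72 in AGS with the same order. Of 26 genes of viral genome restriction, 12 were lower and 2 higher, and 3 and 1 in the between-line test. MX2, a GTPase that restricts nuclear entry of viruses, measured 3.37 and 4.95 in YCCEL1, 1.03 and 3.19 in SNU719, and 201 and 115 in AGS (log2 difference -5.31). APOBEC3F measured 21.8 and 12.9 in YCCEL1, 4.61 and 2.53 in SNU719, and 126 and 99.1 in AGS and APOBEC3B, another antiviral cytidine deaminase, measured 479.7 and 496 in YCCEL1, 0 and 0 in SNU719, and 349.9 and 384 in AGS, listed at 0 in SNU719 alone. IRF7 gave an adjusted p = 0.0016 and MX2 0.00944 in the between-line test, while DDX58 gave 0.117, MAVS 0.0688 and APOBEC3F 0.0752.

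Among 13 entry factors of EBV, 3 were higher and 6 lower at the adjusted p, beside 17.6% of all genes in each direction. The between-line test called 1 of the 13 higher and 2 lower at the adjusted p, beside 1199 and 1576 of all 27350 genes. EPHA2, the ephrin receptor used for entry into epithelial cells, measured 1521 and 1657 in YCCEL1, 1334 and 1327 in SNU719, and 2113 and 2017 in AGS (log2 difference -0.51, SE 0.11, adjusted p = 0.00296). CR2, the receptor on B cells, was listed at 0 in both EBV+ lines and measured 3.10 and 0 in AGS. ITGB8, the integrin chain bound by viral glycoproteins, measured 229 and 248 in YCCEL1, 537 and 432 in SNU719, and 74.6 and 82.0 in AGS, and EPHA4 measured 11.5 and 19.3 in YCCEL1, 6.20 and 36.1 in SNU719, and 531 and 431 in AGS. The entry genes other than EPHA4 and ITGB8 thus lay within the fold limit.

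MHC class II genes, which present peptides to CD4+ T cells, were higher in the EBV+ lines. Of 13 tested, 9 were higher and 1 lower at the adjusted p, 6 and 1 past the fold limit, and 5 were higher in both lines. Over all genes, 17.6% were higher at the adjusted p, 4.77% past the fold limit and 2.00% past it in both lines. The median log2 difference was 1.98 (YCCEL1 2.46, SNU719 1.79). In the between-line test, 5 were higher and none lower at the adjusted p by limma, beside 1199 and 1576 of all 27350 genes. As for the other lists, medians include genes listed at 0 and depend on the added 1.

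HLA-DMB, a chain of the peptide loading chaperone, measured 66.8 and 74.9 in YCCEL1, 335 and 282 in SNU719, and 0.496 and 0 in AGS (log2 difference 6.93, SE 0.37, adjusted p = 3.77e-09). HLA-DRA, the shared alpha chain of HLA-DR, measured 25.1 and 25.3 in YCCEL1, 8.90 and 9.75 in SNU719, and 0 and 0 in AGS. CIITA, the master activator of class II genes, measured 94.4 and 41.8 in YCCEL1, 11.3 and 15.8 in SNU719, and 5.65 and 2.60 in AGS (adjusted p = 0.0131), and YCCEL1 alone passed against AGS (adjusted p = 0.00382 and 0.206 for SNU719). Class II levels were low even where higher, and the order of the EBV+ lines changed from gene to gene. HLA-DRB1 measured 9.70 and 4.96 in YCCEL1, 386 and 379.8 in SNU719, and 0 and 1.12 in AGS and HLA-DQB1 measured 158 and 227 in YCCEL1, 107 and 115 in SNU719, and 13.0 and 4.05 in AGS. CD74, the invariant chain, measured 50.5 and 54.4 in YCCEL1, 41.4 and 52.4 in SNU719, and 8.74 and 18.5 in AGS (log2 difference 1.87). HLA-DOA, a chain of a modulator of HLA-DM, went the other way with 0.759 and 0.854 in YCCEL1, 0 and 0 in SNU719, and 16.1 and 1.93 in AGS. HLA-DMB gave an adjusted p = 0.0135 in the between-line test, HLA-DRA 0.0221, HLA-DQB1 0.0151 and CD74 0.0415, while HLA-DRB1 gave 0.27 and CIITA 0.212. HLA genes are polymorphic and DRB1 and DRB5 are near-identical, so the counting may have split or lost reads by allele. The summed class II level was 539 to 571 in YCCEL1, 1137 to 1149 in SNU719 and 76.6 to 104 in AGS.

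**Figure D4:**
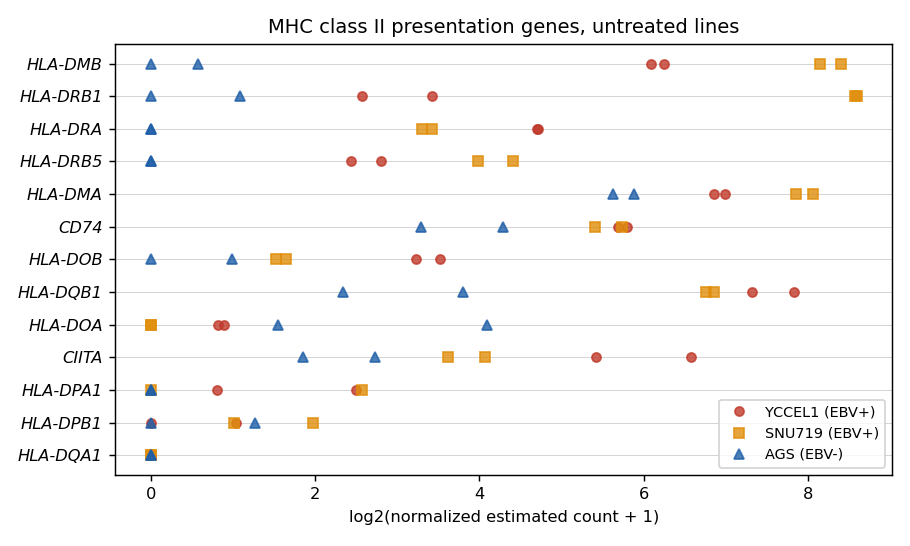
Level of the 13 MHC class II presentation genes as log2(normalized estimated count + 1), with 1 point per DMSO library and genes ordered by adjusted p. In the upper 8 genes both EBV+ lines lie above AGS, and HLA-DQA1 is at 0 in all 6 libraries.

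MHC class I genes, which present peptides to CD8+ T cells, lay mostly within the fold limit. Of 22, 5 were higher and 13 lower at the adjusted p, and 1 in each direction passed the fold limit. At the adjusted p, 17.6% of all genes passed in each direction, and past the fold limit 4.77% were higher and 4.79% lower. The between-line test called 2 of the 22 higher and 1 lower at the adjusted p, beside 1199 and 1576 of all 27350 genes. TAPBPL, a peptide editor of class I, measured 124 and 134 in YCCEL1, 82.1 and 78.6 in SNU719, and 4.74 and 2.98 in AGS (log2 difference 4.43, SE 0.21), and ERAP2, an aminopeptidase that trims peptides, measured 85.6 and 43.4 in YCCEL1, 13.2 and 23.5 in SNU719, and 491 and 452 in AGS (log2 difference -3.79, SE 0.28). B2M, the light chain, measured 2937 and 2484 in YCCEL1, 5112 and 4909 in SNU719, and 6947 and 7119.6 in AGS (adjusted p = 6.35e-09, and 0.226 in the between-line test). HLA-C measured 1373 and 1602 in YCCEL1, 2386 and 2441 in SNU719, and 566 and 511 in AGS and was higher in both EBV+ lines. Of 17 checkpoint ligands, 4 were higher and 4 lower at the adjusted p, and 1 and 2 in the between-line test. TNFRSF14, the receptor HVEM, measured 304 and 361 in YCCEL1, 624 and 725 in SNU719, and 3.46 and 8.18 in AGS (log2 difference 6.21, SE 0.25, adjusted p = 1.94e-10). CD274, which encodes PD-L1, measured 6.89 and 7.05 in YCCEL1, 7.55 and 13.9 in SNU719, and 32.5 and 23.5 in AGS and did not pass (adjusted p = 0.289). TNFSF9, the ligand of 4-1BB, was listed at 0 in YCCEL1 and AGS and measured 236 and 302 in SNU719.

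Chemokines and NF-kB targets went both ways. Of 32 tested, 12 were higher and 9 lower, and 4 in each direction passed in both lines. At the adjusted p, 17.6% of all genes passed in each direction, and 2.00% were higher and 2.75% lower past the fold limit in both lines. The between-line test called 5 of the 32 higher and 4 lower at the adjusted p, beside 1199 and 1576 of all 27350 genes. CXCL5, a neutrophil chemokine, measured 121 and 93.3 in YCCEL1, 1574 and 1634 in SNU719, and 1.78 and 0 in AGS (log2 difference 7.96, SE 0.30, adjusted p = 1.07e-10). CCL20, which attracts CCR6+ cells, measured 199 and 173 in YCCEL1, 135 and 129 in SNU719, and 0 and 0 in AGS, and CCL28, a mucosal chemokine, measured 85.2 and 109 in YCCEL1, 92.8 and 81.4 in SNU719, and 0 and 2.19 in AGS. CXCL8 measured 369 and 365 in YCCEL1, 134 and 159.5 in SNU719, and 44.8 and 47.7 in AGS. The neutrophil and mucosal chemokines named here were thus higher in both EBV+ lines. CXCL10 and CXCL11, interferon-induced chemokines of T cells, were lower, with 0 and 0 in YCCEL1, 1.85 and 0.839 in SNU719, and 36.3 and 40.5 in AGS for CXCL11. IL18, an epithelial cytokine, measured 107 and 113 in YCCEL1, 189.8 and 196 in SNU719, and 776 and 821 in AGS, and CSF1, the macrophage growth factor, measured 13.6 and 12.4 in YCCEL1, 14.0 and 0.572 in SNU719, and 229 and 239 in AGS. CXCL8 and CSF1 gave adjusted p = 0.0674 and 0.0676 in the between-line test. IL32 measured 2.53 and 3.53 in YCCEL1, 816 and 847 in SNU719, and 146 and 165 in AGS, above AGS in SNU719 and below it in YCCEL1.

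Genes of epithelial-mesenchymal transition were more often lower than higher in the EBV+ lines, and CDH1 was higher in both. CDH1, which encodes E-cadherin, measured 3055 and 2679.8 in YCCEL1, 5018 and 3881 in SNU719, and 67.8 and 104 in AGS (log2 difference 5.39, SE 0.21, adjusted p = 1.53e-10). Of 28 genes of epithelial-mesenchymal transition, 11 were lower and 1 higher at the adjusted p, beside 17.6% of all genes in each direction. Past the fold limit in both EBV+ lines, 6 were lower and 1 higher, beside 2.75% and 2.00% of all genes. The median log2 difference was -0.71. All 6 libraries were at 0 for 4 of the 28, and 10 of the 28 reached a mean of 10 in at least 1 of the lines. The between-line test called 3 of the 28 lower and none higher by limma, beside 1576 lower and 1199 higher of all 27350 genes. ITGA5, the fibronectin receptor chain, measured 0 and 0 in YCCEL1, 18.1 and 23.1 in SNU719, and 917 and 688 in AGS. VIM, the mesenchymal filament vimentin, measured 34.5 and 20.4 in YCCEL1, 27.5 and 51.0 in SNU719, and 57.3 and 80.5 in AGS and was low in every library. TNC, the matrix protein tenascin, was the member higher, with 9.20 and 16.1 in YCCEL1, 59.3 and 131 in SNU719, and 0 and 0.843 in AGS. ITGA5 gave an adjusted p = 0.0733 in the between-line test and TNC 0.0931, and CDH1 gave 0.00147. Among the transcription factors of the program, ZEB1, ZEB2, SNAI2 and TWIST1 stayed below 10 in all 6 libraries and did not pass. SNAI1 measured 22.0 and 25.8 in YCCEL1, 12.7 and 4.81 in SNU719, and 29.4 and 31.3 in AGS and was lower by the mean of the EBV+ lines (log2 difference -1.07, adjusted p = 0.00868). SNU719 alone passed against AGS by limma (adjusted p = 5.88e-04, and 0.533 for YCCEL1).

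Keratins went both ways. Of 18 keratins, 7 were higher and 7 lower at the adjusted p, and 6 were lower and none higher past the fold limit in both lines. At the adjusted p, 17.6% of all genes passed in each direction, and 2.75% were lower and 2.00% higher past the fold limit in both lines. KRT17 measured 1.48 and 2.15 in YCCEL1, 0 and 1.52 in SNU719, and 296 and 268 in AGS (log2 difference -7.07, SE 0.45, adjusted p = 2.20e-08), and KRT81, KRT13, KRT16, KRT14 and KRT86 were the others. KRT6B, a keratin of stratified epithelium, measured 385 and 384 in YCCEL1, 0 and 0 in SNU719, and 2.68 and 0 in AGS, so that YCCEL1 alone was high. The between-line test called 1 of the 18 higher and 6 lower at the adjusted p, beside 1199 and 1576 of all 27350 genes. KRT18, a keratin of simple epithelium, was higher by less, with 17169 and 18027 in YCCEL1, 22725 and 22487 in SNU719, and 7978 and 8093 in AGS. Of 32 claudins, CEACAMs and adhesion genes, 6 were higher and 11 lower. CLDN6, a claudin of fetal epithelium, measured 0 and 0 in YCCEL1, 0.741 and 0 in SNU719, and 387 and 346 in AGS, whereas CLDN7 measured 985 and 894 in YCCEL1, 1326 and 1344 in SNU719, and 2265 and 2468 in AGS.

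Gastric differentiation genes went both ways. Of 25 genes of gastric mucosa, 9 were higher and 6 lower at the adjusted p, beside 17.6% of all genes in each direction. The between-line test called 4 of the 25 higher and 2 lower at the adjusted p, beside 1199 and 1576 of all 27350 genes. AGR2, a disulfide isomerase of mucus-secreting cells, measured 5868 and 5791 in YCCEL1, 16303 and 16059 in SNU719, and 71.2 and 49.2 in AGS (log2 difference 7.33, SE 0.56, adjusted p = 1.37e-07). ANXA10, a gastric annexin, measured 256 and 220.4 in YCCEL1, 56.3 and 56.1 in SNU719, and 1.55 and 1.80 in AGS, and SULT1C2 measured 88.7 and 34.4 in YCCEL1, 2850.4 and 3261 in SNU719, and 0.782 and 0.491 in AGS, with an adjusted p = 0.118 for SULT1C2 in the between-line test. CTSE, the gastric aspartic protease cathepsin E, measured 595 and 538 in YCCEL1, 24.3 and 6.71 in SNU719, and 11652 and 11395 in AGS (log2 difference -7.02, SE 0.33, adjusted p = 7.34e-10). PGC, the pepsinogen of chief cells, measured 0.702 and 0 in YCCEL1, 1.69 and 0.951 in SNU719, and 223 and 217 in AGS, and TFF1, the trefoil peptide of foveolar cells, measured 0 and 0 in YCCEL1, 9.53 and 6.73 in SNU719, and 50.8 and 52.6 in AGS. CTSE, PGC and TFF1 were thus highest in AGS, and in the between-line test PGC gave an adjusted p = 0.00296, CTSE 0.137 and TFF1 0.143. MUC1 measured 2033 and 1867 in YCCEL1, 62.8 and 76.6 in SNU719, and 2211 and 2758 in AGS, low in SNU719 alone, and MUC6, a gland mucin, measured 109 and 46.1 in YCCEL1, 0 and 0 in SNU719, and 0 and 0.825 in AGS.

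Intestinal genes separated the EBV+ lines from each other. Of 27, 10 were higher and 7 lower, and none was higher past the fold limit in both lines by limma, although 2 were lower. At the adjusted p, 17.6% of all genes passed in each direction, and 2.00% were higher and 2.75% lower past the fold limit in both lines. MEP1A, a brush border protease, measured 0 and 0 in YCCEL1, 1363 and 1149 in SNU719, and 0 and 0 in AGS, GPA33, an intestinal surface antigen, measured 0 and 0 in YCCEL1, 1819.9 and 1829 in SNU719, and 0 and 6.23 in AGS, and PHGR1 and SI, the disaccharidase sucrase-isomaltase, were listed at 0 outside SNU719. CDX2, the intestinal homeobox factor, measured 272 and 206 in YCCEL1, 191 and 282 in SNU719, and 497 and 468 in AGS (log2 difference -1.04). Among 29 gastric and endodermal transcription factors, 11 were higher and 9 lower. EHF, an epithelial ETS factor, measured 2489 and 2266 in YCCEL1, 1638 and 1677 in SNU719, and 121 and 77.9 in AGS (log2 difference 4.34, SE 0.18). GATA4, a gastric lineage factor, measured 238 and 222 in YCCEL1, 70.3 and 61.0 in SNU719, and 1120.1 and 1163 in AGS (log2 difference -3.21, SE 0.16, adjusted p = 1.26e-09, and 0.0618 in the between-line test). BHLHA15, a factor of secretory cells, measured 0 and 0 in YCCEL1, 0 and 0 in SNU719, and 28.9 and 20.7 in AGS.

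Genes reported as methylated in EBV-associated gastric cancer were about as often higher as lower. Of 54 tested, 14 were higher and 15 lower at the adjusted p, 8 higher and 10 lower past the fold limit, and 5 and 6 in both lines, with a median of 0. At the adjusted p, 17.6% of all genes passed in each direction. Past the fold limit, 4.77% of all genes were higher and 4.79% lower, and in both lines 2.00% and 2.75%. The between-line test called 4 of the 54 higher and 6 lower at the adjusted p, beside 1199 and 1576 of all 27350 genes. IRF5, an interferon regulatory factor, measured 3.82 and 0 in YCCEL1, 0 and 0 in SNU719, and 58.6 and 42.5 in AGS, and CDKN1C, an inhibitor of cyclin-dependent kinases, measured 2.23 and 0 in YCCEL1, 0.838 and 0.839 in SNU719, and 25.4 and 15.6 in AGS (log2 difference -3.53, SE 0.44, adjusted p = 2.02e-05). TIMP2, an inhibitor of metalloproteases, measured 0 and 0 in YCCEL1, 218 and 208 in SNU719, and 612 and 681 in AGS, and CDKN2B measured 0 and 0 in YCCEL1, 201 and 221 in SNU719, and 372 and 434 in AGS, both listed at 0 in YCCEL1 alone. PYCARD, the inflammasome adaptor, measured 16.7 and 12.4 in YCCEL1, 273 and 276 in SNU719, and 0 and 0 in AGS, so that AGS alone was listed at 0 (adjusted p = 0.108 in the between-line test). ACSS1, a mitochondrial acetyl-CoA synthetase, measured 844 and 887 in YCCEL1, 511 and 557 in SNU719, and 9.47 and 4.55 in AGS. CDKN2A, RUNX3, SFRP1, SFRP2, RARB and RASSF10 stayed below 2 in all 6 libraries, where no difference was detectable.

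The genes that write, erase and read DNA methylation stayed within the fold limit. Of 20, 4 were higher and 7 lower at the adjusted p and none passed the fold limit in either direction by limma. At the adjusted p, 17.6% of all genes passed in each direction, and past the fold limit 4.77% were higher and 4.79% lower. DNMT1, the maintenance methyltransferase, measured 1257 and 927 in YCCEL1, 951 and 966 in SNU719, and 1214 and 981 in AGS and did not pass (adjusted p = 0.775). DNMT3B, a de novo methyltransferase, measured 101 and 108 in YCCEL1, 80.4 and 97.6 in SNU719, and 235 and 242 in AGS (log2 difference -1.30, SE 0.16, adjusted p = 1.36e-05). TET2, a demethylating dioxygenase, measured 127 and 129 in YCCEL1, 176 and 150.0 in SNU719, and 230.1 and 232 in AGS (log2 difference -0.67, SE 0.15), and TET3 measured 433 and 412 in YCCEL1, 595 and 538 in SNU719, and 298 and 259 in AGS (log2 difference 0.81). DNMT3B and TET2 were thus lower and TET3 higher, and in the between-line test DNMT3B gave an adjusted p = 0.008, TET2 0.0722 and TET3 0.065.

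Retinoic acid genes went both ways. Of 31 genes, 6 were higher and 6 lower, and 1 was higher and 4 lower past the fold limit, all 5 in both lines. At the adjusted p, 17.6% of all genes passed in each direction, and 2.00% were higher and 2.75% lower past the fold limit in both lines. The between-line test called 3 higher and 3 lower at the adjusted p, beside 1199 higher and 1576 lower of all 27350 genes. ALDH1A1, a retinaldehyde dehydrogenase that makes retinoic acid, was the member higher past the fold limit and measured 2349 and 2149.6 in YCCEL1, 1060.1 and 1089 in SNU719, and 1.58 and 2.97 in AGS (log2 difference 8.93, SE 0.14, adjusted p = 9.55e-15). DHRS3, a retinal reductase that retinoic acid also induces, and RDH10, which oxidizes retinol to retinal, were higher within the fold limit, with log2 differences of 1.84 and 1.69. TGM2, a transglutaminase induced by retinoic acid, measured 5.82 and 2.81 in YCCEL1, 0.999 and 1.81 in SNU719, and 640.4 and 543 in AGS (log2 difference -7.41, SE 0.32, adjusted p = 4.12e-10). CRABP2, which carries retinoic acid to the nucleus, measured 319 and 313 in YCCEL1, 4.25 and 9.18 in SNU719, and 2307 and 2363 in AGS, and PLAAT4, a retinoid-induced phospholipase also known as RARRES3, measured 2.06 and 4.60 in YCCEL1, 1.24 and 2.67 in SNU719, and 88.6 and 90.6 in AGS. STRA6, a retinol transporter, was listed at 0 in both EBV+ lines and measured 3.48 and 6.07 in AGS. Among the receptors, RARB was listed at 0 in all 6 libraries, RARA measured 189 and 164 in YCCEL1, 233 and 209 in SNU719, and 228 and 252 in AGS and did not pass, and RARG measured 293 and 292 in YCCEL1, 218 and 175 in SNU719, and 357 and 395 in AGS (log2 difference -0.65, adjusted p = 3.88e-05). RARG and CRABP2 gave adjusted p = 0.221 and 0.221 in the between-line test, while ALDH1A1 gave 8.39e-04 and TGM2 0.0035.

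Of the 16 genes that the study names, 2 were higher and 7 lower at the adjusted p, and NKD1 and CDKN1C were lower past the fold limit in both lines. At the adjusted p, 17.6% of all genes passed in each direction, and 2.75% were lower past the fold limit in both lines. INPP4B, a lipid phosphatase, measured 356 and 334 in YCCEL1, 50.4 and 57.0 in SNU719, and 47.4 and 28.8 in AGS and DDX4, a germ cell helicase, measured 0 and 0 in YCCEL1, 295 and 362 in SNU719, and 0 and 0 in AGS, each higher in 1 of the EBV+ lines alone (adjusted p = 0.389 and 0.546 in the between-line test). INHBB, an inhibin subunit, was listed at 0 in both EBV+ lines and measured 0.892 and 2.24 in AGS, and it no longer passed without AGS replicate 2 (adjusted p = 0.24) or with a pseudocount of 5. RASSF1 measured 245 and 262 in YCCEL1, 95.9 and 96.0 in SNU719, and 121 and 144 in AGS, HOPX 6.26 and 7.796 in YCCEL1, 6.27 and 1.71 in SNU719, and 16.1 and 4.66 in AGS and CHFR, a mitotic checkpoint ligase, 0.57 and 2.98 in YCCEL1, 22.0 and 7.99 in SNU719, and 2.79 and 8.03 in AGS, and none of the 3 passed, although RASSF1 passed without AGS replicate 2 (adjusted p = 0.0413). SFRP1 was listed at 0 in all 6 libraries.

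Growth control genes of other pathways varied by line. For each list of this paragraph, the share of all genes at the adjusted p was 17.6% in each direction. Of 29 WNT antagonists, 4 were higher and 9 lower. DKK4 measured 97.9 and 83.4 in YCCEL1, 266 and 298 in SNU719, and 7.13 and 6.71 in AGS, higher in both EBV+ lines, while DKK1 measured 1079 and 1017 in YCCEL1, 0 and 0 in SNU719, and 599.8 and 675 in AGS, listed at 0 in SNU719 alone. Of 36 WNT ligands, receptors and targets, 9 were higher and 12 lower. Of 26 CDK inhibitors and checkpoint genes, 8 were higher and 12 lower, and CCNE1, the G1 cyclin E1, measured 67.9 and 72.4 in YCCEL1, 16.4 and 21.0 in SNU719, and 329 and 344 in AGS (log2 difference -3.18, SE 0.16, adjusted p = 1.89e-09, and 0.071 in the between-line test). Of 35 receptor kinases and oncogenes, 13 were higher and 7 lower. MET, the hepatocyte growth factor receptor, measured 3157 and 2898 in YCCEL1, 2111 and 2257 in SNU719, and 642 and 594 in AGS (log2 difference 2.05, SE 0.08), and PDGFRA was among the genes at 0 in both EBV+ lines. Of 37 TGF-beta and BMP genes, 9 were higher and 9 lower. BMP4 measured 30.4 and 29.0 in YCCEL1, 43.95 and 42.0 in SNU719, and 551 and 608 in AGS (log2 difference -3.98, SE 0.17, adjusted p = 3.96e-10) and TGFB1 measured 1.18 and 4.01 in YCCEL1, 305 and 294 in SNU719, and 995 and 1078 in AGS, near 0 in YCCEL1.

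Detoxifying enzymes were more often higher than lower in the EBV+ lines. Of 30 targets of NRF2 and aldo-keto reductases, 18 were higher and 7 lower at the adjusted p, beside 17.6% of all genes in each direction. Past the fold limit 7 were higher and 1 lower, beside 4.77% and 4.79% of all genes, and the median log2 difference was 0.66. In 20 of the 30 all 4 EBV+ libraries lay above AGS, which held for 15.6% of all genes. AKR1C3, which reduces prostaglandins and steroids, measured 384 and 459.8 in YCCEL1, 1359 and 1363 in SNU719, and 6.58 and 9.29 in AGS (log2 difference 6.42, SE 0.21, adjusted p = 2.37e-11). ALDH3A1, an aldehyde dehydrogenase, measured 1816 and 1911 in YCCEL1, 17202 and 17410.5 in SNU719, and 408 and 501 in AGS (log2 difference 3.65, SE 0.07). GPX2, the epithelial glutathione peroxidase, measured 2934 and 2946 in YCCEL1, 6329 and 6290.2 in SNU719, and 609.7 and 659 in AGS (log2 difference 2.76, SE 0.25). Canonical targets did not all share this: NQO1 measured 1288 and 1290.2 in YCCEL1, 2148 and 2238 in SNU719, and 3654 and 3937 in AGS and HMOX1 68.9 and 109 in YCCEL1, 70.7 and 68.2 in SNU719, and 141 and 134 in AGS, both lower, and GCLM was lower too with 187 and 201 in YCCEL1, 215 and 186 in SNU719, and 563 and 297 in AGS. AKR1B1, aldose reductase, measured 223 and 246 in YCCEL1, 19.5 and 14.1 in SNU719, and 1406 and 1383 in AGS (log2 difference -4.44, SE 0.14). In the between-line test, 8 of the 30 were higher and none lower at the adjusted p by limma, beside 1199 and 1576 of all 27350 genes. ALDH3A1 gave an adjusted p = 0.178 in the between-line test, AKR1B1 0.163 and NQO1 0.0939. Aldo-keto reductases of the AKR1C group are near-identical, so their counts may have been split.

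Of 26 glutathione transferases and metallothioneins, 10 were higher and 7 lower. For each list of this paragraph, the share of all genes at the adjusted p was 17.6% in each direction. GSTP1, whose promoter is often methylated in cancer, measured 9402 and 10046 in YCCEL1, 4142 and 4115 in SNU719, and 2352 and 2251 in AGS (log2 difference 1.46, SE 0.04, adjusted p = 6.78e-12, and 0.168 in the between-line test). Of 46 apoptosis and pyroptosis genes, 16 were higher and 7 lower. BCL2, the inhibitor of mitochondrial apoptosis, measured 175 and 159 in YCCEL1, 116 and 86.4 in SNU719, and 2.40 and 1.22 in AGS (log2 difference 5.57, SE 0.31, adjusted p = 4.75e-09). MCL1, its relative, measured 1825 and 1710.2 in YCCEL1, 1626 and 1709 in SNU719, and 4478 and 4452 in AGS (log2 difference -1.38, SE 0.04). FAS, a death receptor, measured 471 and 438 in YCCEL1, 375 and 456 in SNU719, and 76.9 and 79.1 in AGS (log2 difference 2.46). BCL2 and FAS were thus higher and MCL1 lower in both EBV+ lines. Of 27 p53 targets, 10 were higher and 7 lower.

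Cancer-testis antigens, germ cell genes that are silent in most adult tissue, were more often higher than lower in the EBV+ lines. Of 45 tested, 12 were higher, all past the fold limit and 6 in both lines, and 4 were lower, beside 4.77% of all genes higher past the fold limit. The between-line test called 6 higher and 3 lower at the adjusted p, beside 1199 and 1576 of all 27350 genes. MAGEA6 measured 339.8 and 422 in YCCEL1, 639 and 629 in SNU719, and 0 and 0 in AGS, MAGEA12 64.0 and 42.3 in YCCEL1, 262 and 284 in SNU719, and 0 and 0 in AGS, CSAG1 29.1 and 26.9 in YCCEL1, 165 and 161 in SNU719, and 0 and 0 in AGS and SSX4 92.6 and 94.4 in YCCEL1, 216 and 413 in SNU719, and 0 and 0 in AGS. Among the 3 lines, AGS alone was listed at 0 for these. Summed over the list's 49 members, the level was 34.6 to 34.7 in AGS, 661 to 724 in YCCEL1 and 3638 to 3860 in SNU719. Untreated SNU16 and HGC27, both EBV-negative, reached 722 to 760 and 9496 to 9950, so that AGS was the lowest of the 5 lines. CTAG2, SSX2, DDX43 and GAGE2A were listed at 0 outside SNU719, where CTAG2 measured 625 and 651. MAGEA, SSX and GAGE genes have near-identical copies, and the counting may have split reads among them. Of 38 HOX genes, 12 were higher and 8 lower at the adjusted p, beside 17.6% of all genes in each direction. HOXA11 measured 34.0 and 36.5 in YCCEL1, 110.2 and 127 in SNU719, and 0 and 0 in AGS and HOXA3 369 and 381 in YCCEL1, 158 and 147 in SNU719, and 0 and 0 in AGS, higher in both, while HOXA13 and HOXA10 were listed at 0 outside SNU719, where HOXA13 measured 994 and 960.3.

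Median differences by nuclear chromosome were small, with chromosome 7 apart. Over 734 genes of chromosome 7 with a mean of at least 10, the median log2 difference was 0.69 (YCCEL1 0.60, SNU719 0.86), 77.8% of these genes lay above 0, and the medians of its 8 segments of 20 Mb ran from 0.29 to 0.98. HGC27 and SNU16, compared with the same AGS libraries, lay above them by 0.36 and 0.60. Medians were 0.44 on chromosome 18, -0.35 on chromosome 1 and -0.24 on chromosome 19, beside a median near 0 over the 14238 genes of all chromosomes. The 19 mitochondrial genes in this set had a median of 1.18 (YCCEL1 1.42, SNU719 1.29), and 89.5% of them lay above 0. Genes of chromosome 7 named above included STEAP1, MET, HOXA3 and HOXA11, which were higher in the EBV+ lines, and IRF5, BHLHA15 and AKR1B1, which were lower. DNA copy number was not analysed here, and its part in these values was not tested.

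**Figure D5:**
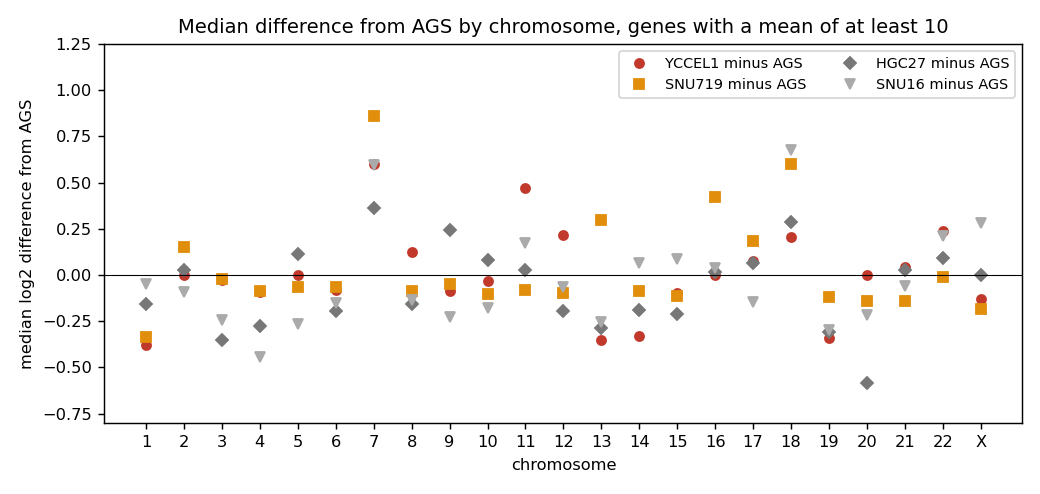
Median log2 difference from AGS of the genes of each chromosome with a mean of at least 10, for the 2 EBV+ lines (colors) and the 2 EBV-negative lines (grays), which share the AGS libraries. On chromosome 7 the medians run from 0.36 to 0.86.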

How the data were processed

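The 6 DMSO libraries of YCCEL1, SNU719 and AGS were taken from a table of 60232 genes in 20 libraries, and no column was left unused. The deposited values are a signal, estimated counts per gene normalized between libraries by the authors: 36.4 to 41.7% of low values (under 300 reads) were whole multiples of a step per library within 0.02, so that whole reads could not be recovered and no count model was run. The authors, per the submitters' processing notes, used STAR 2.5.2b, featureCounts 1.5.1 and DESeq2 1.14.1. Gene positions match GRCh38, although these notes name GRCh37, and the labels and the study's methods describe different library kits, which bears on how level relates to gene length; levels were not compared between genes.

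For genes whose sum over the 20 libraries exceeded 10, log2(value + 1) was modelled in R 4.3.3 over 10 groups of 2 libraries, with the linear model and trended empirical Bayes step of limma 3.58.1. The contrast was the mean of the 2 EBV+ lines minus AGS, the line contrasts came from the same fit, and a gene passed in both lines when the larger of its 2 p-values, Benjamini-Hochberg adjusted, was below 0.05 and the smaller log2 difference was past 2. The procedure was tested on simulated data. Replicate numbers did not pair the libraries (correlations of deviations -0.0227, -0.0211 and 0.0519). Genes were named when they were among the 10 largest in both lines in each direction, the 5 smallest adjusted p in each direction, the study's named genes, or the 4 members of a list with the smallest adjusted p, and protein-coding genes outside chromosome Y alone entered the first of these. Other genes were named after their values were seen. The members and lists were chosen with earlier results of these data known, and the between-line test of the lists was added after seeing the data. Promoters came from RefSeq (GRCh38.p14). A few genes that the rule names are not reported here.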

Additional observations from a re-analysis of the deposited data

Results flagged for a closer look

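Of the genes that the rules for naming chose, 48 differed between YCCEL1 and SNU719 in their distance from AGS, with a log2 difference beyond 2 and an adjusted p of at most 0.0271, by limma's test of that difference with Benjamini-Hochberg adjustment. YCCEL1 was the higher line in 10 of them and SNU719 in 38. Values are YCCEL1 minus SNU719 on the log2 scale, and those of genes listed at 0 in 1 of the lines depend on the pseudocount. Groups of 2 libraries are too small for a check of single libraries that stand apart.

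Among genes chosen from the study's text or by the smallest p, CYBA gave 9.85 (adjusted p = 2.42e-16), PRNP -9.65 (adjusted p = 3.88e-17) and CAVIN1 -9.39 (adjusted p = 8.51e-17). DDX4 gave -8.36 (adjusted p = 8.79e-07) and INPP4B 2.66 (adjusted p = 8.03e-06). LGALS1 was below AGS in both lines, further in YCCEL1, with -3.29. CHFR gave -2.53 (adjusted p = 0.00434) at low levels, with means of 1.77 in YCCEL1, 15.0 in SNU719 and 5.41 in AGS.

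Of immune and antiviral genes, APOBEC3B gave 8.93, IL32 -7.7 and CXCL5 -3.9. IFI6 gave -4.33, ISG15 -2.02 and DDX58 -2.06. HLA-DRB1 gave -5.59, HLA-DMB -2.1, TNFSF9 -8.07 and ITGAM, a myeloid integrin chain, -6.77. Every one of these but APOBEC3B was lower in YCCEL1.

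The intestinal genes MEP1A, PHGR1, SI and CDH17, a cadherin of intestine, gave -10.3, -8.85, -6.91 and -4.87. Gastric CTSE gave 5.34, SULT1C2 -5.76 and TFF1 -3.17. Of genes tied to adhesion and mesenchymal state, ITGA5 gave -4.43 and S100A4 2.09. The protocadherins PCDHA6, PCDHA12 and PCDHB12 gave -6.25, -4.26 and -2.87.

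Among genes reported as methylated in such tumors, TIMP2 gave -7.74, CDKN2B -7.73 and PYCARD -4.17. DKK1 gave 10, NOTUM, another WNT inhibitor, -7.96, SP5, a WNT target, 5.71, and the receptor gene FZD1 -8.14. PHLDA3, a p53 target, gave -8.87, LTBP1, which binds latent TGF-beta, -2.46, and CRABP2 5.44. The detoxifying genes ALDH3A1 and AKR1B1 gave -3.21 and 3.74. HOXA13, HOXB6 and HOXB5 gave -9.93, -6.49 and -5.11. The cancer-testis genes CTAG2, CSAG1 and MAGEA12 gave -9.32, -2.5 and -2.37, and H19, an imprinted RNA, gave 6.04.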

How the results depend on the processing

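The number of genes 4-fold apart was set mainly by 3 choices. A pseudocount of 5 gave 707 higher and 809 lower genes (323 and 492 in both lines), the between-line test 481 and 640, and other fold limits gave 4822 and 4813 (1979 and 2399 in both lines) with none and 2853 and 2670 (1090 and 1329) at a log2 difference of 1. With genes of a mean of at least 10, 478 were lower in both lines. Leaving out each library in turn gave 1253 to 1326 higher, 1285 to 1368 lower, 505 to 581 higher in both and 683 to 767 lower in both. Without AGS replicate 1, HOPX turned from -0.73 to 0.0725 on the log2 scale, and it measured -1.52 without AGS replicate 2, none past the threshold. With the replicate number as a block, 1310 genes were higher and 1307 lower (541 and 746 in both lines), and the libraries share only a number. Of the 165 named genes, 71 no longer passed in the between-line test. The other alternatives (other filters, scalings, sample sets, no trend, array weights) changed no count by over 1.5 times. With 2 libraries per line, and values of 0 that may lie under the reach of the depth, small differences of low genes were not detectable.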

Other observations

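Imprinted genes held some of the widest gaps. Of 31 tested, 5 were higher and 7 lower at the adjusted p, and 1 was higher and 5 lower past the fold limit in both lines. The shares of all genes were 17.6% in each direction, and 2.00% and 2.75% past the fold limit in both lines. The between-line test called 1 of the 31 higher and 3 lower at the adjusted p, beside 1199 and 1576 of all 27350 genes. H19, a maternally expressed noncoding RNA, measured 524 and 681 in YCCEL1, 4.57 and 13.9 in SNU719, and 10199 and 10500.1 in AGS (log2 difference -7.13, adjusted p = 9.95e-10, and 0.169 in the between-line test). NAP1L5 was listed at 0 in both EBV+ lines and measured 47.3 and 64.9 in AGS. KCNQ1, a potassium channel gene of the same cluster as CDKN1C, measured 1808 and 1542 in YCCEL1, 1222 and 1293 in SNU719, and 205 and 198 in AGS, higher in both lines.

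Cytosolic ribosomal protein genes were mostly higher in the EBV+ lines by small amounts, which were larger in YCCEL1 than in SNU719. Of 73, 68 were higher and 4 lower at the adjusted p, beside 17.6% of all genes in each direction, and none passed the fold limit by limma. The median log2 difference was 0.51, with 0.87 in YCCEL1 and 0.17 in SNU719. They made up 8.39 to 8.53% of the summed level in YCCEL1, 5.84 to 5.87% in SNU719 and 5.52 to 5.72% in AGS. In the between-line test 3 were higher and 1 lower at the adjusted p, beside 1199 higher and 1576 lower of all 27350 genes. All 13 mitochondrial protein genes were higher in the EBV+ lines, by 0.72 to 1.80 on the log2 scale.

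Among 27 targets of p53, MDM2, the ligase that degrades p53, measured 6085 and 5776 in YCCEL1, 1709 and 1599.5 in SNU719, and 1009.5 and 1032 in AGS, highest in YCCEL1, and FDXR, a mitochondrial reductase, measured 963 and 907 in YCCEL1, 933 and 879 in SNU719, and 314 and 336 in AGS (adjusted p = 8.36e-09). CDKN1A, the p21 inhibitor, measured 1516 and 1755 in YCCEL1, 972 and 944 in SNU719, and 2093 and 1995 in AGS and was lower. Of 52 clustered protocadherins, 10 were higher and 10 lower, 2 and 0 past the fold limit in both lines. The shares of all genes were 17.6% in each direction, and 2.00% and 2.75% past the fold limit in both lines. PCDHA6 was listed at 0 in YCCEL1 and AGS and measured 67.8 and 82.9 in SNU719.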
